A study of Homo sapiens with 6 samples.

Results

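The transcripts described here are 10 non-coding RNAs that carry small nucleolar RNAs (snoRNAs) in their introns: GAS5, SNHG1, SNHG5, SNHG6, SNHG7, SNHG8, SNHG12, SNHG15, SNHG16 and ZFAS1. They were measured in RL, an established human B lymphoid line with the t(14,18) translocation of follicular lymphoma, without treatment. The 3 samples called MALC came from multicellular aggregates of lymphoma cells collected after 10 days of culture. The 3 suspension samples came from exponentially growing cells of the same line, so the groups differ in culture form and in growth state together, and these cannot be told apart. Each sample was read on 1 Affymetrix U133 Plus array, which holds 54613 probe sets beside its controls, and values are linear signals as deposited.

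Members were to be found as probe sets whose annotated gene symbol was exactly 1 of the 10 names. That gave 5 probe sets of 2 genes, 4 for ZFAS1 and 1 for GAS5. A further 16 probe sets of 9 genes had an entry with several symbols, made up of 1 of the 10 hosts and snoRNAs that all lie inside the span of that host in RefSeq. They lie outside the exact rule and were added after the annotation was seen. They are described as probe sets of the host's locus, since the entry does not tell host and snoRNA signal apart. Together 21 probe sets covered all 10 loci, and all 21 lay above the filter on dim signals, a mean of 53.4.

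A snoRNA host gene is transcribed and spliced like other genes, but the product for which many hosts are known is in the introns. After splicing, the excised introns are trimmed down to snoRNAs, which guide chemical modification of ribosomal RNA: box C/D snoRNAs guide ribose methylation, box H/ACA snoRNAs guide pseudouridylation. The spliced host RNA has a fate of its own. GAS5 was named for its accumulation in growth-arrested cells, begins with an oligopyrimidine tract typical of mRNAs whose translation follows growth, and is degraded by nonsense-mediated decay when it is translated.

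The sequences around the annotated starts are given for the loci with more than 1 probe set, because the results turn on these loci and because start-site pyrimidine tracts are what this gene class is known for. RefSeq's promoter table (GRCh38.p14) held a window, 250 bases before to 50 after the start, for 8 of the 10 genes used here. Shown are the 30 bases before and the 30 from the start on, in the direction of transcription. Capitals mark a run of at least 7 C or T bases that begins with C within 5 bases of the start. The run was searched on the strand of the transcript alone, as printed.
GAS5, chr1:173869016-173869075, minus strand: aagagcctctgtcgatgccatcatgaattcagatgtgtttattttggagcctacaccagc
ZFAS1, chr20:49278612-49278671, plus strand: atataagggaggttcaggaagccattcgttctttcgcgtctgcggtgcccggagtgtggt
SNHG7, chr9:136728155-136728214, minus strand: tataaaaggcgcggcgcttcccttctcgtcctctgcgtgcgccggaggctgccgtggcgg
SNHG12, chr1:28581844-28581903, minus strand: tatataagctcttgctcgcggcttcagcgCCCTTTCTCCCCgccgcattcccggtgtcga
SNHG16, chr17:76557734-76557793, plus strand: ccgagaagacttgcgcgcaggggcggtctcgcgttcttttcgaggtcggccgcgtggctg

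Of the 8 windows, 1 held such a run, that of SNHG12, where it was 12 bases long. GAS5 had no run at its annotated start, so the tract described for GAS5 above is not seen at the start printed here. Shorter tracts, such as the ctttc at the ZFAS1 start printed above, were not counted. The same search found a run in 7.61% of 35116 promoter windows of the table. The sequence CACGTG, bound by MYC and its relatives, was present in 1 of the 8 windows (SNHG7) and in 7.26% of all windows. The shorter ACGTG, searched on both strands and contained in every CACGTG, was present in 2 of 8 (SNHG7 and SNHG8) and in 21.4% of all. These matches describe the letters of 1 annotated start per gene, which may not be the start used in RL cells.

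The 6 arrays had medians between 80.7 and 81.7. Of the B cell markers, 6 of 7 had a tested probe set with that symbol alone, with MS4A1 (CD20) at 12586 in MALC and 13174 in suspension, and 1 (BLK) was higher in MALC. Summed over the 5 T cell markers, of which 4 were tested, signals ranged over 382 to 392 (MALC) and 415 to 439 (suspension). For the 4 monocyte markers, 1 of them tested, the ranges were 167 to 185 and 175 to 186. For the 4 fibroblast markers, 3 of them tested, they were 427 to 464 and 494 to 921. None of the tested markers of these cell types was called, and the others were too dim to be tested. The fibroblast marker COL1A2, chosen after its values were seen, had means of 48.8 in MALC and 176 in suspension. Its log2 change of −1.25 did not pass (adjusted p = 0.0817). MALC 1 stood apart from MALC 2 and MALC 3: in 19 of the 21 probe sets it was the MALC array nearest to the suspension mean, as it was for 56.4% of all tested probe sets. The ACTB control, read at its 3′ end over its 5′ end, gave 1.22 to 1.33 (MALC) and 1.31 to 1.54 (suspension). The GAPDH control read the same way gave 1.012 to 1.018 (MALC) and 1.037 to 1.059 (suspension), ranges that did not overlap. The part of these differences in the results was not tested. Nothing states that the samples were separate cultures, so the p-values below measure a spread that could be technical only. In RNA from whole cultures, fewer cells with a transcript and less of it per cell cannot be told apart.

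Among all 21 probe sets, 8 were higher and 10 lower in MALC, and 3 did not pass. Of all 32768 tested probe sets, 41.7% were called (limma with Benjamini-Hochberg adjustment at 0.05), 21.2% as higher and 20.4% as lower. The 5 probe sets with 1 symbol split into 3 higher and 1 lower, the 16 locus probe sets into 5 higher and 9 lower. The median log2 change was −0.20 over the 21, against −0.04 over all probe sets. The changes were moderate in size, from a log2 change of −1.22 (SNHG12) to 0.81 (ZFAS1). The loci fell into 4 kinds. ZFAS1, GAS5 and SNHG7 had probe sets that moved in opposite directions. SNHG6 and SNHG8 were higher. SNHG12, SNHG15 and SNHG16 were lower with every probe set. SNHG1 and SNHG5 did not pass.

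**Figure D1:**
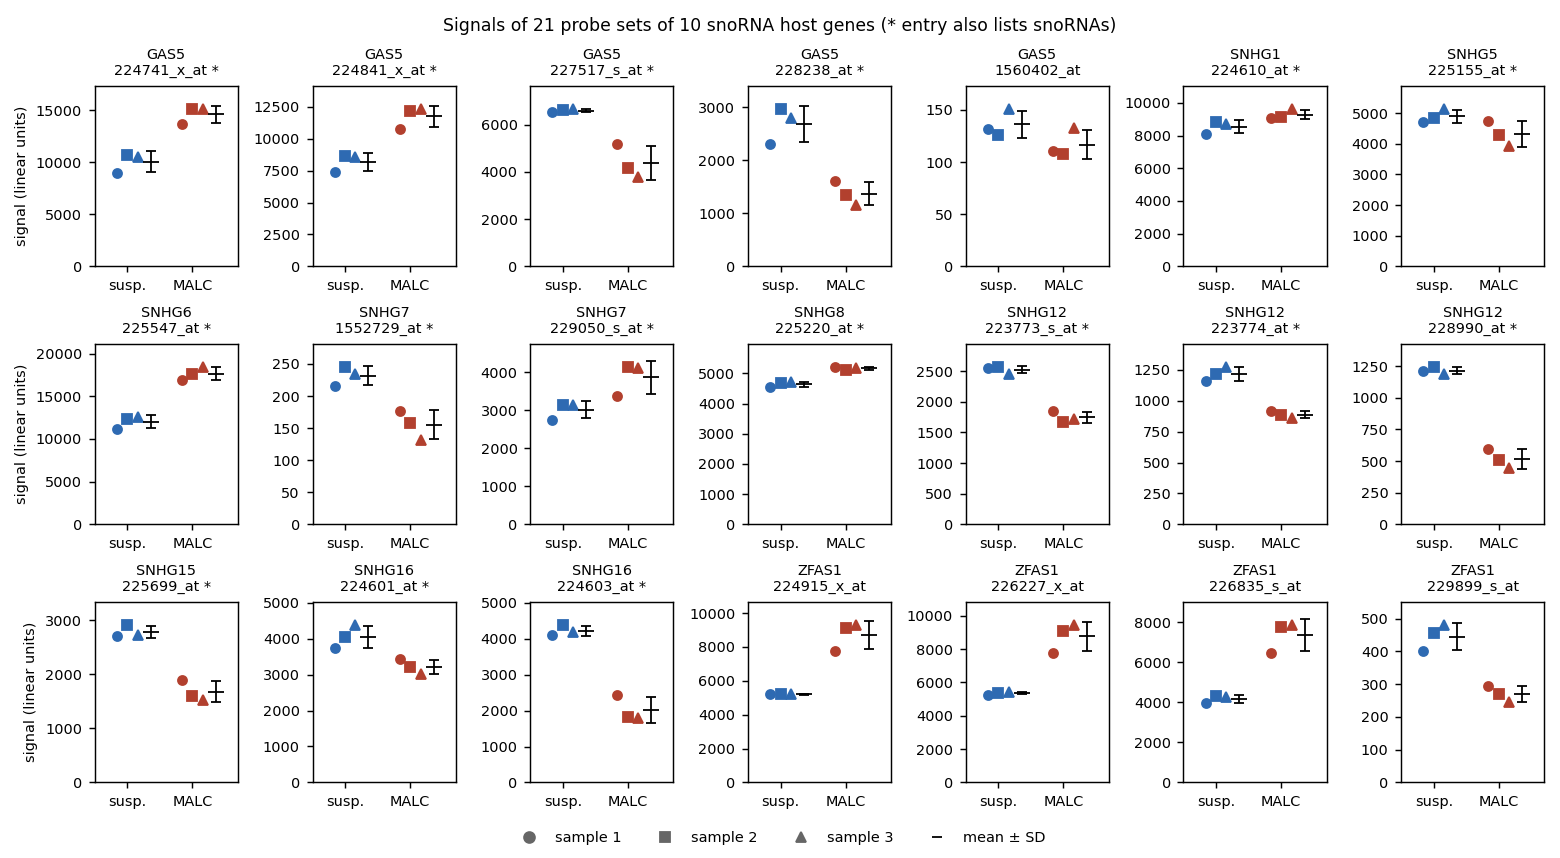
Linear signal (vertical axes from 0, a scale for each panel) of the 21 probe sets in suspension (blue) and MALC (red), with a symbol for each sample and mean ± SD beside it (n = 3). The opposite shifts of GAS5 224741_x_at and 228238_at, and of ZFAS1 226835_s_at and 229899_s_at, can be seen, as can MALC 1 (circles) lying nearest to suspension in most panels.

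ZFAS1 is transcribed antisense to the 5′ end of ZNFX1 and hosts box C/D snoRNAs. Its probe set 226835_s_at had signals of 6473, 7788 and 7851 in MALC 1, 2 and 3 and of 3962, 4303 and 4286 in suspension 1, 2 and 3. All MALC arrays were above all suspension arrays, with MALC 1 the lowest of its group. The means were 7370.5 ± 778 and 4184 ± 193 (SD, n = 3 each), a rise of 1.75-fold (log2 change 0.81, SE 0.082, adjusted p = 0.000471). The probe set 224915_x_at gave 7781, 9133 and 9268 in MALC against 5196, 5243 and 5208 in suspension, a rise of 1.67-fold (adjusted p = 0.000377). The third, 226227_x_at, gave 8759.7 ± 880.3 and 5346 ± 63.3, a rise of 1.63-fold (adjusted p = 0.000504). In Affymetrix names the suffix _x_at marks probes that can match other transcripts and _s_at probes shared by several transcripts. These 3 may therefore hold signal of other transcripts and may not be independent readings. The same limit holds for each probe set below with either suffix.

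The remaining ZFAS1 probe set, 229899_s_at, went the other way. It had 294, 271 and 247 in MALC 1, 2 and 3 and 399.9, 456 and 479 in suspension 1, 2 and 3. The groups did not overlap, with every MALC array below every suspension array. It fell by 0.69 on the log2 scale (SE 0.097, 1.61-fold lower, adjusted p = 0.00148). Without both samples numbered 1 the changes of the 4 ZFAS1 probe sets were 0.86, 0.81, 0.78 and −0.82, in the order given above.

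GAS5, host of the box C/D snoRNAs SNORD44, SNORD47, SNORD74, SNORD76, SNORD77, SNORD79, SNORD80 and SNORD81 in this annotation, was read by 5 probe sets. At the GAS5 locus, 224741_x_at had 13661, 15103 and 15084 in MALC 1, 2 and 3 and 8952, 10708 and 10556 in suspension 1, 2 and 3. All 3 MALC arrays were above suspension, and the array numbered 1 was the lowest in either group. The means were 14616 ± 827 and 10072 ± 973, a rise of 1.45-fold (log2 change 0.54, SE 0.075, adjusted p = 0.00143). Its companion 224841_x_at gave 11761 ± 846 and 8190.4 ± 703, a rise of 1.44-fold (adjusted p = 0.00168). Both rises at this locus were thus read by _x_at probe sets.

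At the same locus, 228238_at had 1604, 1345 and 1159 in MALC 1, 2 and 3 and 2307, 2959 and 2789.9 in suspension 1, 2 and 3. Every MALC array was below every suspension array. It was 1.96-fold lower in MALC (log2 change −0.97, SE 0.136, adjusted p = 0.00146). The probe set 227517_s_at fell in the same direction, from 6593 ± 71.5 to 4372 ± 728, which is 1.52-fold lower (log2 change −0.60, adjusted p = 0.00352). The single probe set that names GAS5 alone is 1560402_at. Its signals were 110.3, 108 and 133 in MALC and 131, 126 and 151 in suspension, and the groups overlapped. It did not pass (log2 change −0.20, SE 0.096, 95% interval −0.42 to 0.03, adjusted p = 0.137). In the fit blocked on the sample number it did (0.0448), which brings the 1-symbol probe sets that were lower from 1 to 2.

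SNHG7, a host of the box H/ACA snoRNAs SNORA17A and SNORA17B, was the third locus with opposite probe sets. Its 229050_s_at had 3364, 4128 and 4109 in MALC 1, 2 and 3 and 2749.9, 3141 and 3139 in suspension 1, 2 and 3. The groups did not overlap, and MALC 1 lay only slightly above the suspension arrays. It rose 1.28-fold (log2 change 0.36, SE 0.096, adjusted p = 0.0207). The adjusted p was above 0.05 when MALC 2 (0.0852), MALC 3 (0.0782) or suspension 1 (0.0535) was left out. The other probe set, 1552729_at, gave 176, 158 and 131 in MALC against 216, 245 and 235 in suspension. Here every MALC array was below suspension, and the signal was 1.45-fold lower (log2 change −0.54, SE 0.106, adjusted p = 0.00571).

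Calls in both directions within 1 gene were thus found for 3 of the 5 loci with more than 1 tested probe set. Over all genes with 2 or more tested probe sets the share was 4.93% (332 of 6732). It was 1.82% of genes with exactly 2 tested probe sets, the case of SNHG7, and 12.6% of genes with 4 or more, the case of GAS5 and ZFAS1. As given above, the SNHG7 rise did not pass without MALC 2, MALC 3 or suspension 1, so SNHG7 would not be counted there. Of 23 other snoRNA host genes with 2 or more tested probe sets, 2 had calls both ways, RPL10 and RPLP2, which encode ribosomal proteins. Their lower probe sets had log2 changes of −0.46 (RPL10) and −0.32 (RPLP2, an entry with that symbol alone). Unequal change without calls both ways was also seen in RPL27A, RPL23 and RPL5, chosen after their values were seen. A probe set of each was called lower, with log2 changes of −1.27, −0.98 and −0.84. Their other probe sets with snoRNAs in the entry had 0.04 (RPL27A), 0.04 (RPL23), and 0.06 and 0.03 (RPL5), none of them called. The files give no position of a probe set along its transcript, and no probe sequence was used here.

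**Figure D2:**
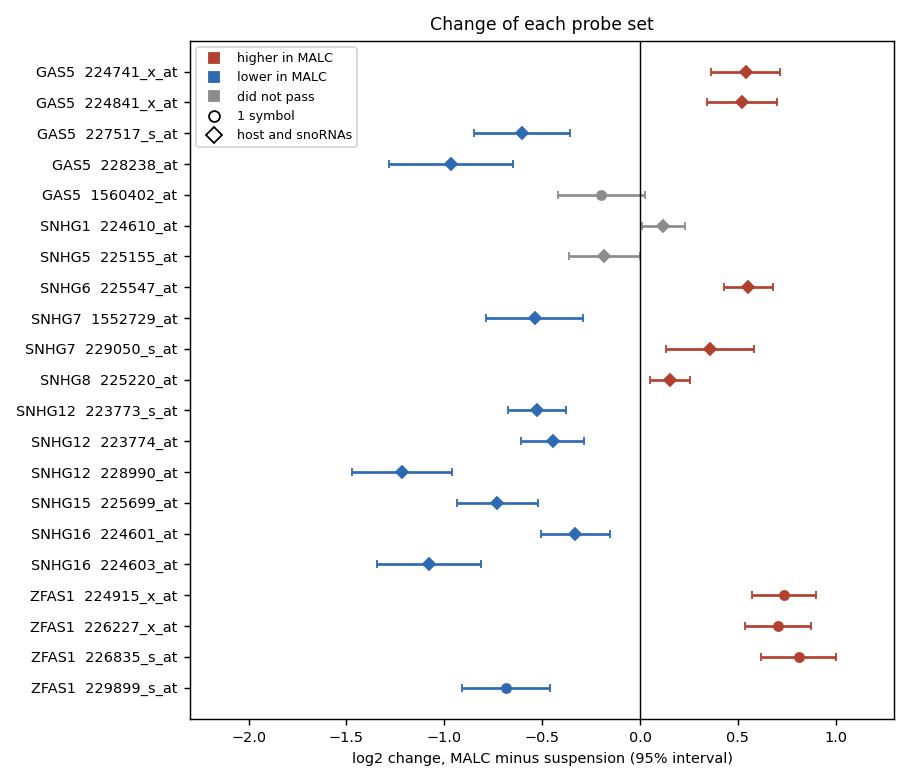
Log2 change (MALC minus suspension, horizontal axis) of each probe set with its 95% interval from limma, circles for entries with 1 symbol and diamonds for host entries that also list snoRNAs. Red marks 8 probe sets called higher, blue 10 called lower and grey 3 that did not pass; GAS5, SNHG7 and ZFAS1 have both colours.

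The signal of the probe set with the lowest change, divided by that with the highest change of the same locus on the same array, shows this unequal change without any scaling between arrays. Since the 2 probe sets were chosen by their changes, the direction of the quotient is set by that choice, and the values are a description without a test. For ZFAS1 the quotient of 229899_s_at to 226835_s_at was 4.54%, 3.47% and 3.14% in MALC 1, 2 and 3. In suspension 1, 2 and 3 it was 10.1%, 10.6% and 11.2%, so that the mean was 2.85-fold lower in MALC. For GAS5 the quotient of 228238_at to 224741_x_at was 11.7%, 8.91% and 7.68% in MALC and 25.8%, 27.6% and 26.4% in suspension, 2.82-fold lower. In both loci the groups lay far apart relative to the spread within them, and MALC 1 was the MALC array nearest to suspension. The mean quotient was 1.88-fold lower in MALC for SNHG7, 1.72-fold lower for SNHG12 and 1.68-fold lower for SNHG16. At SNHG12 and SNHG16 both of these probe sets fell, by unequal amounts. The quotients of MALC and suspension overlapped in none of the 5 loci. Taken the same way, they did not overlap for 56.4% of 6732 genes with 2 or more tested probe sets, and for 83.1% of those with 4 or more. The median fold was 1.12 over genes with exactly 2 tested probe sets (SNHG7, SNHG16), 1.25 with 3 (SNHG12) and 1.44 with 4 or more (GAS5, ZFAS1). The 95th percentiles were 1.79, 2.23 and 2.90 in the same order. SNHG7 lay above that of its class, and the other loci lay below theirs.

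**Figure D3:**
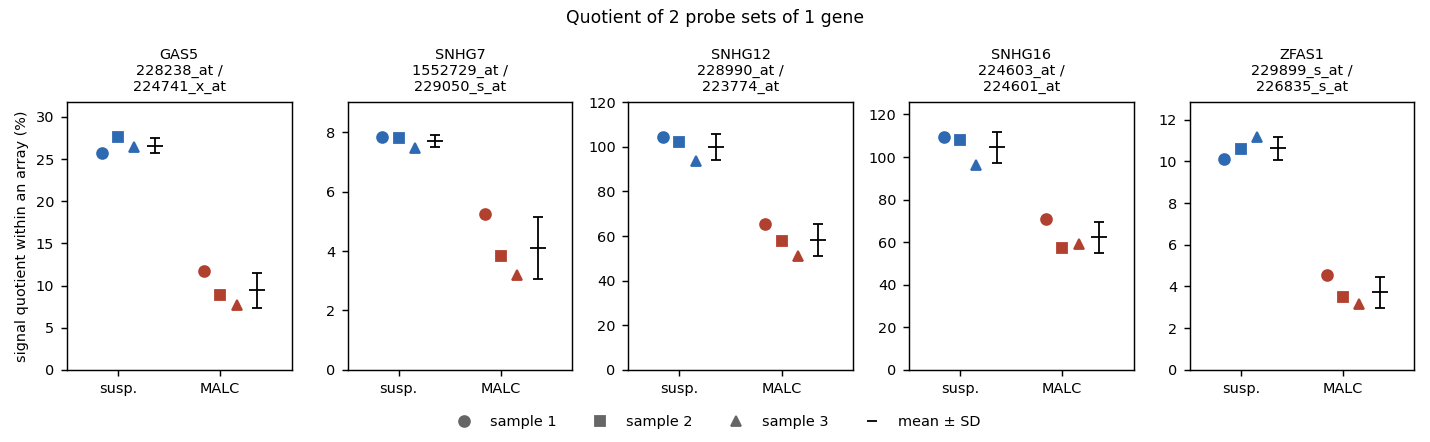
Signal of 1 probe set as a percent of another probe set of the same locus on the same array (vertical axes from 0), for the 5 loci with more than 1 probe set, with a symbol for each sample and mean ± SD (n = 3). The probe set with the lowest change is divided by that with the highest, so MALC (red) lying below suspension (blue) follows from the choice. The size ranges from 2.85-fold (ZFAS1) to 1.68-fold (SNHG16). Over genes with 4 or more tested probe sets, as GAS5 and ZFAS1, the median was 1.44-fold and the 95th percentile 2.90-fold. With exactly 2, as SNHG7 and SNHG16, they were 1.12- and 1.79-fold, and with 3, as SNHG12, 1.25- and 2.23-fold.

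By the snoRNAs named in this annotation, the other hosts of box C/D snoRNAs were SNHG1, SNHG5, SNHG6 and SNHG16. SNHG6, host of SNORD87, had 16904, 17622 and 18382 in MALC and 11173, 12282 and 12605 in suspension at 225547_at. The groups were separated by a wide gap, and the signal rose 1.47-fold (log2 change 0.55, SE 0.054, adjusted p = 0.000402). SNHG16, host of SNORD1A and SNORD1C, was lower with both of its probe sets. Its 224603_at had 2422, 1831 and 1785 in MALC 1, 2 and 3 and 4103, 4371 and 4198 in suspension, 2.11-fold lower (log2 change −1.08, SE 0.115, adjusted p = 0.000547). Its 224601_at gave 3217 ± 200.4 and 4052 ± 309, which is 1.26-fold lower (adjusted p = 0.0103).

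SNHG1, the host of SNORD22 and of SNORD25 to SNORD31, had 9083, 9170.1 and 9616 in MALC and 8122, 8846 and 8697 in suspension at 224610_at. The MALC arrays were all above the suspension arrays, by a small margin. The log2 change of 0.12 did not pass (SE 0.047, 95% interval 0.01 to 0.23, adjusted p = 0.0776). It passed when the fit was blocked on the number (0.0486), with array weights (0.0395), without both samples numbered 1 (0.0164) and after quantile normalization (log2 change 0.20, adjusted p = 0.0164). SNHG5, host of SNORD50A and SNORD50B, had 4757, 4299 and 3921 in MALC and 4706, 4851 and 5130.0 in suspension at 225155_at. The groups overlapped through MALC 1, and the log2 change of −0.18 did not pass (adjusted p = 0.0948). Without MALC 1 it was −0.25 (adjusted p = 0.0128).

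Of the hosts of box H/ACA snoRNAs by this annotation, SNHG12 (host of SNORA16A, SNORA44 and SNORA61) was lower with each of its 3 probe sets. Its 228990_at had 599, 511 and 442 in MALC 1, 2 and 3 and 1214, 1241 and 1189 in suspension. No MALC array came near the suspension range, and the signal was 2.32-fold lower (log2 change −1.22, SE 0.110, adjusted p = 0.000333), the largest fall among the 21. The probe sets 223773_s_at and 223774_at were 1.44- and 1.36-fold lower, with log2 changes of −0.53 and −0.45 (adjusted p = 0.000884 and 0.00211). The start window of SNHG12 is the one with the pyrimidine run printed above, and no result here was tested against that feature.

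SNHG15, host of SNORA9, had 1899, 1608 and 1531 in MALC and 2710.0, 2905 and 2731 in suspension at 225699_at. All MALC arrays were below suspension, and the signal was 1.66-fold lower (log2 change −0.73, SE 0.089, adjusted p = 0.000887). SNHG8, host of SNORA24, had the smallest called change. Its 225220_at gave 5202, 5114 and 5189.7 in MALC and 4545, 4680.1 and 4709 in suspension, a rise of 1.11-fold (log2 change 0.15, SE 0.044, adjusted p = 0.0256). The groups did not overlap, but the adjusted p exceeded 0.05 when MALC 2 (0.079), MALC 3 (0.0751), suspension 2 (0.08) or suspension 3 (0.0704) was left out, and without a variance trend (0.0578).

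The groups did not overlap in 19 of the 21 probe sets, 9 higher and 10 lower, where this held for 56.1% of all tested probe sets, 25.9% with MALC higher and 30.3% with MALC lower. Of the 18 called probe sets, 16 were also called in each of the 6 fits that leave out 1 array, and the exceptions were SNHG7 229050_s_at and SNHG8.

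Likeness to GAS5 was taken as the root mean square difference of centred log2 signals over the 6 samples, from the probe set that names GAS5 alone. The nearest of 13764 genes were ECSCR (0.0401), CHRD (0.0409), ARHGEF25 (0.0428), FUZ (0.0493) and ADGRL1 (0.0505), against a median of 0.185. That probe set was dim, with means of 117 in MALC and 136 in suspension, its groups overlapped and it did not pass. Likeness to it need not be likeness to the brighter probe sets of the locus. The same measure from 3 more probe sets, the brightest of the GAS5 locus and of ZFAS1 and that with the largest fall, was added after their values were seen. For GAS5 224741_x_at the nearest were ZNF395 (0.0198), TTC17, NT5C2, ZNF875 and USP24 (0.0307). For ZFAS1 226227_x_at they were MOAP1 (0.0114), ARID4B, PHF21A, ZHX2 and RCBTB1 (0.0355). For SNHG12 228990_at they were CCDC86 (0.0147), MRTO4, GPATCH4, RRP15 and TRMT6 (0.0494).

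Genes around the snoRNA hosts were described from 5 lists, each gene by its brightest probe set with 1 symbol. Over all 13765 genes taken this way, 18.6% were called higher and 22.7% lower, with a median log2 change of −0.06. Genes for the proteins that form and assemble snoRNPs were mostly lower in MALC: of 18 tested, 15 fell and 1 rose, with a median of −0.53. GAR1, a core protein of H/ACA particles, fell from 3216 ± 106 to 1671 ± 246 (1.93-fold lower, adjusted p = 0.000572). NUFIP1, which acts in C/D particle assembly, was 1.73-fold lower, and NAF1, an assembly factor of H/ACA particles, 1.69-fold lower. The 1 member that rose, named for its direction, was ZNHIT3, which acts in C/D particle assembly (1.59-fold, 2886 ± 237 against 1810.0 ± 73.1, adjusted p = 0.000721).

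Of 24 tested protein-coding genes that host snoRNAs and encode no ribosomal protein, 13 fell and 1 rose, with a median of −0.33. WDR43, a factor of ribosomal subunit assembly, was 1.84-fold lower, EIF4G1, a translation initiation scaffold, 1.80-fold lower, and CCT6A, a chaperonin subunit, 1.55-fold lower (adjusted p = 0.000772, 0.000295 and 0.000771). The gene that rose, TAF1D, an RNA polymerase I factor, rose 1.21-fold (adjusted p = 0.016), and no gene of the list was called higher without MALC 2, MALC 3, suspension 2 or suspension 3. Among the other non-coding hosts on the list, 6 of 20 were tested by a probe set with 1 symbol, and 2 rose and 2 fell. Another 6 had no such tested probe set but an entry that also lists snoRNAs. EPB41L4A-AS1 rose 1.96-fold (5177 ± 502 against 2633 ± 127, adjusted p = 0.000266), and SNHG17 was 2.23-fold lower (1089 ± 104 against 2457 ± 352, adjusted p = 0.00051). DANCR was 1.40-fold lower (adjusted p = 0.0167, and 0.0643 when MALC 3 was left out), and SNHG32, the other that rose, had a change of 0.47.

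Of 15 tested genes of nonsense-mediated decay, 10 fell and 1 rose, with a median of −0.32. MAGOHB, an exon junction complex protein, was 2.08-fold lower (adjusted p = 0.00591), ETF1, the translation termination factor, 1.94-fold lower (0.000443) and RBM8A, the partner of MAGOH proteins, 1.58-fold lower (0.00118). The central helicase gene UPF1 and its partner UPF2 were chosen after their values were seen. UPF1 was 1.36-fold lower (adjusted p = 0.00195), whereas UPF2 had 2236 ± 39.2 in MALC and 2161 ± 87 in suspension (adjusted p = 0.53). The member that rose was NBAS (1.26-fold, adjusted p = 0.00652). The last list holds genes of oligopyrimidine-tract mRNAs other than those for ribosomal proteins, 3 of them also protein-coding hosts. Of 16 tested, 6 rose and 1 fell, with a median of 0.05. EIF3H, EIF3E and EIF3F, subunits of a translation initiation factor, rose 1.31-, 1.28- and 1.23-fold (adjusted p = 0.00125, 0.000655 and 0.00115). NPM1, the nucleolar protein gene that fell, changed by −0.09 (adjusted p = 0.0234), and the list's falls numbered 0 without MALC 2, MALC 3, suspension 2 or suspension 3 and 3 without MALC 1 or suspension 1.

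**Figure D4:**
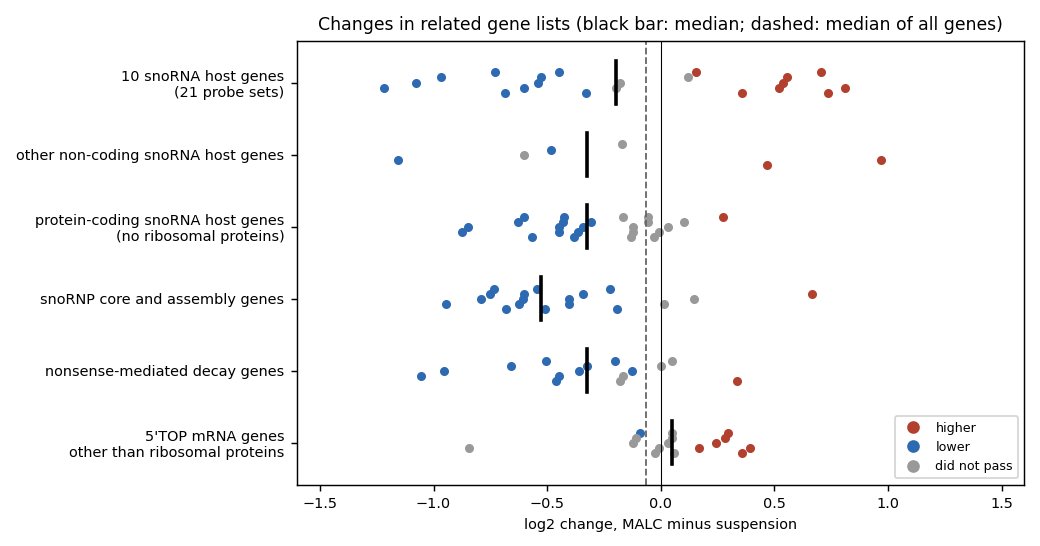
Log2 change (MALC minus suspension) of each probe set of the 10 snoRNA host genes and of each tested gene in the 5 lists, red for called higher, blue for called lower and grey for not passing; black bars are medians and the dashed line the median of all genes (−0.06). The snoRNP list lies lowest, with a median of −0.53, and the 10 host genes spread on both sides of 0.

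Outside the 10 loci, 72 tested probe sets of 31 genes had entries of the same build, a host with snoRNAs inside it. Of these, 21 were higher and 21 lower, with a median of 0.05. The 44 probe sets whose host encodes a ribosomal protein counted 16 higher and 4 lower, the 28 of other hosts 5 higher and 17 lower, beside the 21.2% higher and 20.4% lower of all tested probe sets. Among those 28, the 7 probe sets of 5 SNHG genes counted 3 higher and 2 lower. These counts were made after the annotation was seen.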

How the data were processed

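The deposited table holds a linear intensity for each probe set on each of the 6 arrays. MAS5 is the one tool in the submitters' processing notes. Its role, background correction and scaling between arrays are not given in the sources used here. If the arrays were scaled to each other, a shift of all transcripts would not be seen.

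Of 54613 probe sets, 41091 had 1 symbol, 1801 several and 11721 none; symbols were updated through Entrez identifiers (RefSeq, GRCh38.p14). Here 16 was added to each intensity before log2 was taken. Probe sets at or above the 40th percentile of the mean were kept, and 62 control probe sets left out. Groups, from the sample titles, entered 1 model in limma 3.58.1 under R 4.3.3 (eBayes with trend, two-sided), adjusted by Benjamini-Hochberg over 32768 probe sets. Folds are on the log2(value + 16) scale and understate those of dim probe sets. The test was also run on simulated data, a MALC against suspension comparison of 32768 probe sets of which few were given a change. It recovered 38.8% of 67 log2 changes of 0.5, 79.1% of 67 of 1 and 100% of 66 of 2, with 9 false calls. In the measured data 41.7% of probe sets were called, and recovery with so large a share was not tested.

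Genes beside the 10 were named as the 3 largest called changes of each list and the 5 genes most like GAS5; exceptions are marked as chosen after their values were seen, or named for their direction. The 10 genes, the lists and the tests were chosen with earlier results of these data known. The sample number served as a block in an alternative: the pairs numbered 1, 2 and 3 had correlations of 0.25, 0.17 and 0.14 between their deviations from group means. Every pair lay above 0.1, so the numbers were taken as pairing the samples, although MALC 2 with suspension 3 (0.14) and MALC 3 with suspension 2 (0.18) did so as well. The number of arrays limits the precision.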

Additional observations from a re-analysis of the deposited data

How the results depend on the processing

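There were 17 alternatives, of which the fit with 1 probe set per gene held only 2 of the 21 probe sets. In every alternative that held them, 16 of the 21 kept direction and side of the threshold. The others were GAS5 1560402_at, SNHG1, SNHG5, SNHG7 229050_s_at and SNHG8. In 337 pairs of probe set and alternative, 320 kept their call, 8 lost it, 9 gained it and 0 reversed. With the sample number as a block, the 1-symbol probe sets numbered 3 higher and 2 lower, GAS5 1560402_at and SNHG1 passed, and no other call among the 21 changed. With array weights the lower ones numbered 2 as well, all probe sets called lower 10306, and 2 members rose in each of the protein-coding host and snoRNP lists; without both samples numbered 1 those lists again had 2 rises. Array weights were 0.29 for MALC 1 and 0.311 for suspension 1. With 1 probe set per gene the 1-symbol probe sets numbered 1 higher and 0 lower, since 2 remained, and all genes together 2611 higher and 3266 lower. The falls of the oligopyrimidine-tract list numbered 0 without a filter or a trend, 2 after quantile normalization, and 4 with array weights and without both samples numbered 1; the cause was not tested. Leaving out 1 array gave 3 to 5 higher among the locus probe sets, 1 to 3 lower among the other non-coding hosts, 0 to 1 higher among the protein-coding hosts and 0 to 3 lower in the oligopyrimidine list. For all probe sets it gave 4956 to 7575 higher and 4411 to 7460 lower. Quantile normalization and median centring moved the median change of all probe sets by −0.016 and 0.0008. Dim signals (GAS5 1560402_at, SNHG7 1552729_at) had no detection calls here.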
